A study of Mus musculus with 12 samples.

Results

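The genes of the mouse major histocompatibility complex (MHC, H2) were examined in ATAC-seq peak lists from bone marrow-derived macrophages. The set holds the RefSeq protein-coding genes on chromosome 17 whose symbol starts with H2-, together with Ciita and Cd74, 40 genes in all. Of these, 37 lie on the primary assembly and were measured, among 20623 autosomal protein-coding genes. They are 25 class I genes, 9 class II genes, Ciita, Cd74 and H2-Ke6, which belongs to neither class. H2-Q8, H2-Q9 and H2-T18 are listed far from the other H2 genes, with coordinates like those of an alternate scaffold, and were not measured.

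ATAC-seq marks open DNA through a transposase that cuts and tags it, and a peak is a stretch where cuts pile up. The 12 libraries came from wild-type (WT) macrophages or from knockouts (KO) of Baf60a, the product of Smarcd1 and a subunit of SWI/SNF, which moves nucleosomes. Cells were untreated or given oxidised LDL (oxLDL) at 50 µg/ml for 48 hours. The first cohort had 4 libraries, 1 for each combination of genotype and treatment, made by the Omni-ATAC protocol; its labels say only WT or KO, and whether these cells had ApoE is not stated there. The other set, called the ApoE KO cohort here, had 8 libraries, 2 for each combination, made from cryopreserved cells with a Nextera kit. All of its cells lacked ApoE and carried floxed Baf60a, the WT without and the KO with a Cre recombinase driven by Lyz2, a gene of myeloid cells. The labels do not tie replicates to different animals or cultures, so the spread behind each p-value may be technical.

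Class I molecules sit on nearly all nucleated cells and show peptides made inside the cell to CD8 T cells. Class II molecules are carried by professional antigen-presenting cells and show peptides taken up from outside to CD4 T cells. Ciita is the master co-activator of class II genes and Cd74 is the invariant chain that chaperones class II molecules. In macrophages both classes are known to rise with interferon-gamma.

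Lists of different length cannot be compared peak by peak, so each was cut to its highest-scoring peaks, 80394 on autosomes for the first cohort or 24397 for the ApoE KO cohort. Gene and region values use these lengths unless stated, so they are not on one scale between cohorts. For the fit between cohorts, and where stated, all 12 lists were cut to 24397. A peak belongs to a gene when it lies within 10 kb of it. Its strength is its score percentile, the rank of the caller's score within the cut list, with 100 as the strongest and 0 for no peak. Values of the first cohort are given in the order WT untreated, KO untreated, WT oxLDL and KO oxLDL, and paired values of the ApoE KO cohort are replicates 1 and 2. Depth is unknown, since the lists hold no reads. A region over the start of Smarcd1 was called in 12 of 12 full lists, 6 KO and 6 WT, which does not show the deletion, since the deleted part is not given in the labels. Of the macrophage markers, those with a peak within 1 kb of either end numbered 10 of 10 in every first-cohort library and 7 to 10 in ApoE KO libraries, against 60.7 to 61.9% and 43.9 to 46.1% of all genes. With first-cohort lists of 24397 peaks the number there was 3 to 8, against 39.6 to 46.1% of all genes, so the first cohort was no longer the higher one.

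In the first cohort, all 9 class II genes had a peak in every library, and their windows held 43, 34, 43 and 43 distinct peaks, with shared peaks counted once. That is 16.5 to 20.9 peaks per 100 kb of window, against 5.86 to 7.41 around class I genes and 4.93 to 5.06 around all protein-coding genes. The class I figure joins unlike groups. Classical class I genes had 14.3 to 22.4, which overlaps the 17.3 to 21.4 of classical class II genes. T genes had 11.3 to 16, Q genes 2.97 to 4.45 and M genes 3.11 to 3.8. Windows of class II genes in the ApoE KO cohort held 6 to 10 peaks and those of class I genes 11 to 23. Class II peaks made up 50.9% ± 1.04 (SD, n = 4) of the class I and class II peaks in the first cohort, and the ApoE KO cohort had 30.7% ± 6.15 (SD, n = 8). The 2 ranges, 50 to 51.8% and 25 to 42.1%, did not overlap, but the lists differ in length.

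The contrast depended on list length. With all 12 lists cut to 24397 peaks, the class II share was 40.8% ± 6.27 (SD, n = 4) in the first cohort, with values from 36.4 to 50% that overlap those of the ApoE KO cohort. At that length class II density was 3.89 to 5.83 per 100 kb in the first cohort, and the ApoE KO cohort had 2.91 to 4.86, and class I density was 2.07 to 2.59 and 1.9 to 3.96. Both pairs of ranges overlap. Over all protein-coding genes it was 1.54 to 1.63 and 1.58 to 1.61. The class II counts at that length include 2 regions over starts of Brd2, a gene that overlaps H2-DMa. These were called in 0 first-cohort libraries and in 8 and 6 ApoE KO libraries, so they add to the counts of that cohort alone. Within the ApoE KO cohort, class I counts varied with single genes: H2-Q6, a nonclassical class I gene, had 2 peaks in each first-cohort library and 1 to 9 in the ApoE KO libraries.

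**Figure D1:**
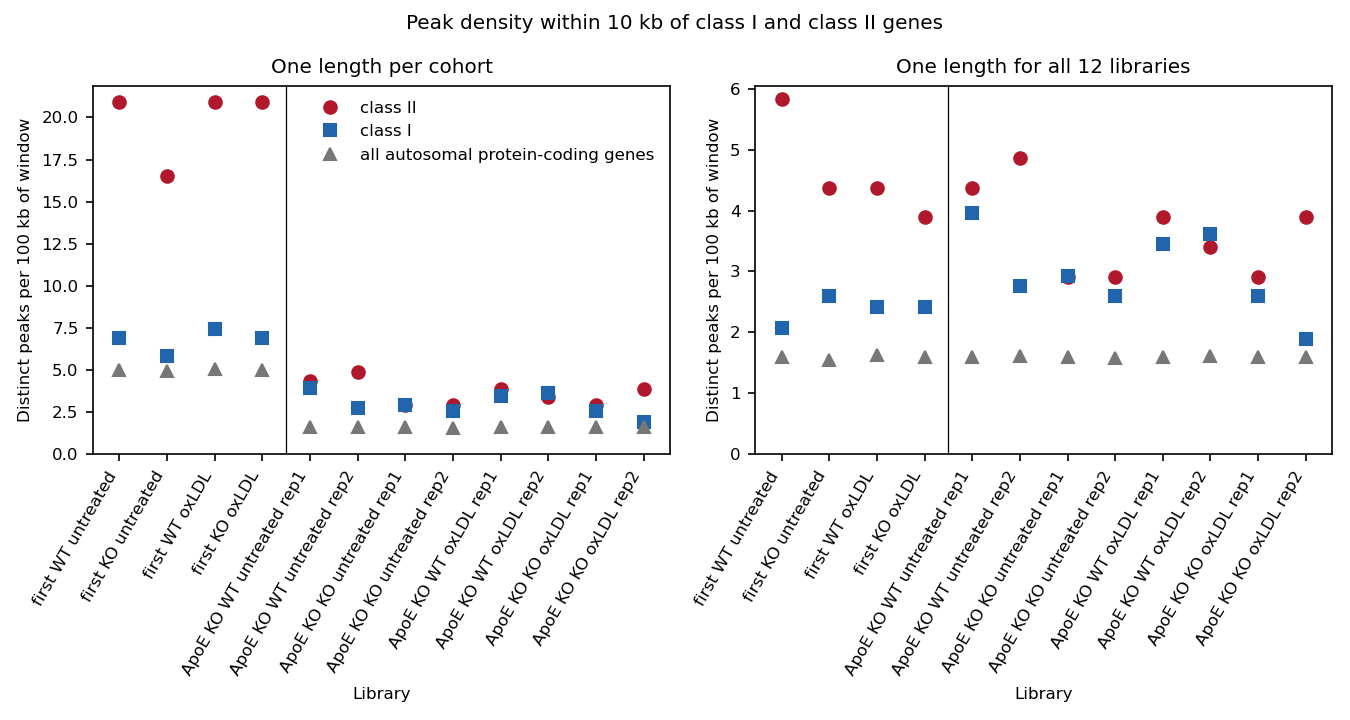
Distinct peaks per 100 kb within 10 kb of class II genes (red circles), class I genes (blue squares) and all autosomal protein-coding genes (grey triangles) in each library, with lists cut to 80394 or 24397 peaks by cohort (left) and to 24397 in all 12 (right). On the left the first-cohort class II values, 16.5 to 20.9, stand above all others; on the right class II values of the cohorts overlap.

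The classical class I genes H2-K1 and H2-D1, which present peptides to CD8 T cells, had an accessible start in every library. The region over the H2-K1 start (mm10, chr17:33998898-34001458) had percentiles of 84.6, 79.4, 93.7 and 90.9 in the first cohort. In the ApoE KO cohort they were 66.3 and 83.9 in WT untreated, 49 and 55.4 in KO untreated, 53.1 and 80.7 in WT oxLDL, and 66.6 and 61 in KO oxLDL. WT and KO values overlapped.

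At the H2-D1 start (chr17:35262571-35264476) WT and KO values did not overlap within the ApoE KO cohort. The first-cohort percentiles were 82.5, 76.9, 88 and 83.1, lower in KO under both treatments. In the ApoE KO cohort they were 72.4 and 89.4 in WT untreated, 61 and 66.2 in KO untreated, 84.3 and 81.8 in WT oxLDL, and 65 and 61.3 in KO oxLDL. Every KO library was below every WT library of that cohort. How many of all regions split this way within the ApoE KO cohort was not counted. The fitted difference over all 12 libraries of both cohorts was -14.17 percentile points (SE 3.74). It did not pass the adjustment over all regions (limma, adjusted p = 0.705).

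The 200 bases before the start of H2-K1, H2-D1 and H2-Q6 are printed to set class I promoters side by side, and those of H2-Aa, H2-Eb1 and H2-DMb1 to set class II beside them. They come from RefSeq on GRCm38.p6, 5′ to 3′ on the gene's strand, and use the first start the table lists for each gene. The capitals mark CCAAT, the core bound by NF-Y, in either orientation, and GGGGANTCC, an NF-kappaB-type motif, in either orientation. The intervals are chr17:34000348-34000547 (minus strand), chr17:35262894-35263093, chr17:35424650-35424849, chr17:34287824-34288023 (minus strand), chr17:34305667-34305866 and chr17:34152991-34153190, in the order of the lines.
H2-K1: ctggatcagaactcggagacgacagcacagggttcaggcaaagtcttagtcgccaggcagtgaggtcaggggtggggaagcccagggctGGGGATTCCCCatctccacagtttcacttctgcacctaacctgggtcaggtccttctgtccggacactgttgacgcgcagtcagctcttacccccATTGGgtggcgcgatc
H2-D1: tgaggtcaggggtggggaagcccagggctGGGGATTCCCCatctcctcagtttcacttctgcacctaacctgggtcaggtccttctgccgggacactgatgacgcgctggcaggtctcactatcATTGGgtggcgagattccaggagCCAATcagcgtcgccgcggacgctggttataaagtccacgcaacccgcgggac
H2-Q6: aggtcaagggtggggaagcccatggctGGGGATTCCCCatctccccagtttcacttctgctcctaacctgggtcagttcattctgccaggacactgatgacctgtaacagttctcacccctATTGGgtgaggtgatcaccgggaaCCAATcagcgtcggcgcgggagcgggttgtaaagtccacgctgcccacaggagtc
H2-Aa: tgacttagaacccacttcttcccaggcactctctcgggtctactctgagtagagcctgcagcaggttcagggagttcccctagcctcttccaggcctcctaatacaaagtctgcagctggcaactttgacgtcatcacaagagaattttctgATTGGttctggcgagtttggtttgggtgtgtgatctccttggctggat
H2-Eb1: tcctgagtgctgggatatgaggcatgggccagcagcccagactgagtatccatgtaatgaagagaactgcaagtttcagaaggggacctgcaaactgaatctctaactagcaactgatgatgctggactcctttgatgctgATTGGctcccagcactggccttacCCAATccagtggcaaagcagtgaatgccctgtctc
H2-DMb1: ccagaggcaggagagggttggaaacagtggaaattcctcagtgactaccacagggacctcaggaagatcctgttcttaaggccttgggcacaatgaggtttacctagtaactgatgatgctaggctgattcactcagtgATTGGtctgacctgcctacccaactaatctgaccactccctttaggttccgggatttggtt

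CCAAT, on either strand of the 250 bases before the start, was present in 20 of the 23 class I genes and 7 of the 8 class II genes that the sequence table holds, and in 34.5% of the 27025 genes in it. GGGGANTCC was present in 5 class I genes (H2-K1, H2-D1, H2-Q6, H2-Q7 and H2-Q10), no class II gene and 1.02% of all genes. Other short sequences were searched too. TATAAA was present in 12 class I genes, 0 class II genes and 13% of all genes, and TGACG in 11, 1 and 17.9%. GGACC was present in 13, 5 and 39.7%, and GAAANNGAAA in 2, 0 and 3.04%. In H2-D1 and H2-Q6 these 250 bases were 82% identical in a global alignment, and in H2-K1 and H2-D1 56.1%. The H2-K1 window is shifted: its GGGGANTCC begins 111 bases before the listed start, against 171 in H2-D1 and 173 in H2-Q6. The 56.1% therefore understates how alike the stretches shared by H2-K1 and H2-D1 are. The class II pairs H2-DMb2 with H2-DMb1 and H2-Eb1 with H2-Eb2 had 60.1% and 55.9%. Their windows are shifted too, with ATTGG at 90 and 61 bases and at 59 and 100 bases, so the percentages do not rank the pairs. How the authors treated reads that map to several such copies is not stated in the labels, so values at near-identical class I genes are uncertain.

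Some nonclassical class I genes had strong peaks at the start, and others had none nearby. The start of H2-Q4 (chr17:35378976-35380455) had first-cohort percentiles of 99.6, 97.7, 98.6 and 98.9, and 37.7 to 77 in the ApoE KO cohort. The start of H2-Q7 (chr17:35438583-35439748), which encodes a Qa-2 antigen, had 95.5, 95.6, 94.7 and 94.3, and 52 to 71.5 in the ApoE KO cohort. The start of H2-M3 (chr17:37269792-37271420), whose product presents N-formylated peptides, had 87.2, 83.1, 87.2 and 86.5, and 54.2 to 78.3 in the ApoE KO cohort. These 3 starts were called in all 12 libraries.

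H2-T23, which encodes Qa-1, the ligand of the NKG2A receptor of natural killer cells, had lower ranks in the ApoE KO lists, which are shorter. Its start (chr17:36031612-36032948) had percentiles of 87.4, 82.3, 92.5 and 87.4 in the first cohort. In the ApoE KO cohort it had 49.1 and 2.6 in WT untreated, 36.9 and 4.76 in KO untreated, 24.4 and 35.2 in WT oxLDL, and 0 and 9.87 in KO oxLDL. Replicates of 1 condition were as far apart as 49.1 and 2.6.

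At the other end, H2-Q1, H2-Q2, H2-M10.4, H2-M11, H2-M9, H2-M1 and H2-M10.5 had no peak within 10 kb in any of the 12 cut lists. H2-Q10 and H2-M10.3 each had 1 peak in the cut lists, in the first-cohort WT untreated library alone. Full first-cohort lists held 3, 3, 0 and 1 for H2-Q10 and 1, 1, 0 and 0 for H2-M10.3. Some full lists also held peaks near H2-Q1, H2-Q2 and H2-M10.5. H2-M10.1 had 1 peak in 3 first-cohort libraries, H2-M5 had 1 in each of the 4, and H2-M10.2 had 1 to 2. None of these had any in the cut lists of the ApoE KO cohort. Full lists of that cohort held 1 for H2-M10.1, in KO oxLDL replicate 2, and 1 for H2-M10.2, in KO untreated replicate 1. H2-M10.6 had 1 peak in each first-cohort library and in the 2 KO untreated libraries of the ApoE KO cohort, with low percentiles of 6.9 and 4.76 in the latter. Full lists also held 1 in WT untreated replicate 1, WT oxLDL replicate 1 and KO oxLDL replicate 2 of that cohort. H2-T3 had 2 to 3 peaks in the first cohort, and the ApoE KO cohort had 0 to 1. H2-T24, H2-T22, H2-T-ps and H2-M2 had peaks in all 12 libraries, with 5 to 8, 2 to 4, 3 to 4 and 2 to 3 in the first cohort, and the ApoE KO cohort had 2 to 4, 1 to 4, 1 to 2 and 1. H2-Ke6, a hydroxysteroid dehydrogenase gene of the same stretch, had 4 in each first-cohort library and 1 to 3 in the ApoE KO cohort.

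**Figure D2:**
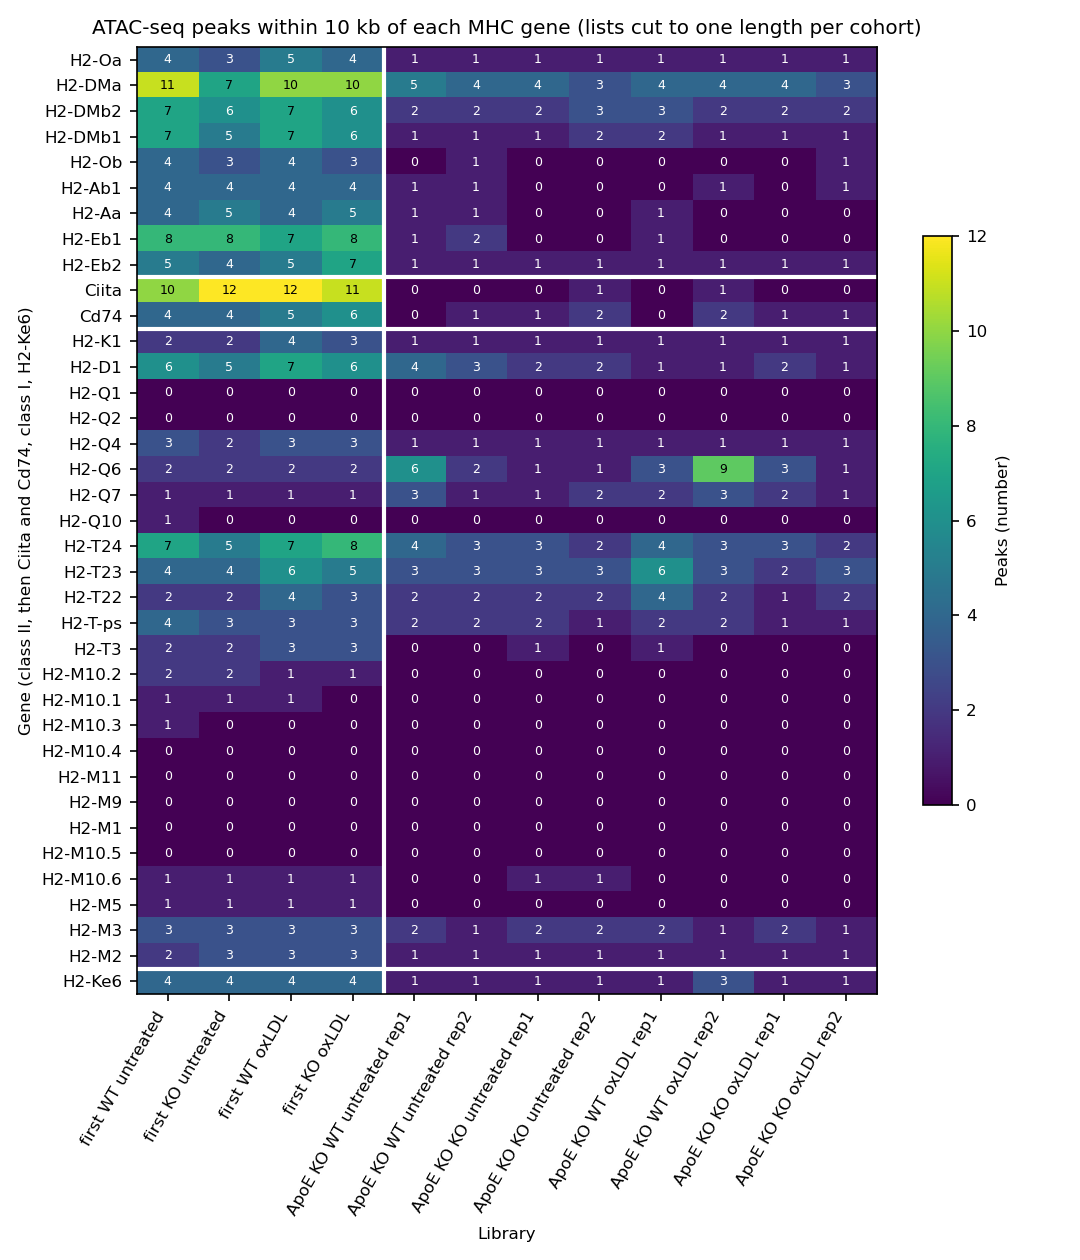
Number of peaks within 10 kb of each of the 37 genes (rows, by class and position) in the 12 libraries (columns), with lists cut to one length per cohort; a peak near 2 genes counts for each. Ciita has 10 to 12 peaks in the first cohort, while ApoE KO libraries have 0 to 1 and 7 class I genes have 0 throughout.

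The classical class II genes encode the alpha and beta chains of I-A (H2-Aa, H2-Ab1) and the beta chains of I-E (H2-Eb1, H2-Eb2). H2-Ab1 had 4 peaks in each first-cohort library, and 1, 1, 0 and 0 in the untreated (WT, then KO) and 0, 1, 0 and 1 in the oxLDL libraries of the ApoE KO cohort. H2-Aa had 4, 5, 4 and 5 peaks in the first cohort. The ApoE KO libraries had 1 and 1 in WT untreated, 1 and 0 in WT oxLDL and 0 in all 4 KO libraries. H2-Eb1 had 8, 8, 7 and 8, then 1 and 2 in WT untreated, 1 and 0 in WT oxLDL and 0 in all 4 KO libraries.

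The peak that H2-Aa and H2-Eb1 share in the ApoE KO cohort lies between them (chr17:34295953-34296708), 8130 bp upstream of H2-Aa. It had percentiles of 77.6, 68.6, 66.1 and 66.6 in the first cohort. The ApoE KO libraries had 10.4 and 52.6 in WT untreated and 15.3 and 0 in WT oxLDL, and it was absent from the 4 KO lists. In the full lists it was called in 3 of 4 WT and 1 of 4 KO libraries, so part of the KO absence comes with the list length. The fitted genotype difference over all 12 libraries of both cohorts was -14.5 points (SE 6.87, limma, adjusted p = 0.705). Both WT untreated libraries and KO oxLDL replicate 1 carry the mark L001 in their file names, whose meaning the labels do not give; its part in this difference was not tested.

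The starts of the classical class II genes had no peak in the ApoE KO lists, even uncut. Of the 3 with a start in the sequence table, H2-Aa and H2-Eb1 were called at the start in 4 of 4 first-cohort full lists and H2-Eb2 in 3, and all 3 in 0 of 8 ApoE KO full lists. The H2-Eb1 start region (chr17:34305613-34306010) had first-cohort percentiles of 75.8, 57.5, 55 and 56.7, and that of H2-Aa (chr17:34287715-34288052) 16.6, 24.3, 10.5 and 9.12. These are middling or low ranks: with first-cohort lists cut to 24397, the H2-Eb1 start was called in 1 library and the other two in none.

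H2-Eb2 had 1 peak in every ApoE KO library, and it was not at the start. That region lies 6031 bp downstream (chr17:34347441-34348478). It had 93.5, 86.2, 87.4 and 88.2 in the first cohort, 43.7 and 59.4 in WT untreated, 42 and 18.4 in KO untreated, 36.3 and 30.2 in WT oxLDL, and 30.3 and 13.4 in KO oxLDL. A second strong region, at the 3′ end of H2-Eb2 (chr17:34340766-34341500), had 87.3, 88.2, 89.8 and 92.5 in the first cohort and was called in 0 of 8 full ApoE KO lists.

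The class II accessory genes H2-DMa, H2-DMb1 and H2-DMb2 encode H2-DM, which loads peptide onto class II molecules, and H2-Oa and H2-Ob encode H2-DO, which restrains it. H2-DMa had 11, 7, 10 and 10 peaks in the first cohort, and the ApoE KO cohort had 3 to 5. H2-DMb2 had 7, 6, 7 and 6, then 2 to 3. H2-DMb1 had 7, 5, 7 and 6, then 1 to 2. Some of the peaks near H2-DMa sit over starts of Brd2, a bromodomain gene that overlaps it in the table, such as chr17:34118924-34120021, called in 8 of 8 ApoE KO libraries.

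A region inside H2-DMa (chr17:34135220-34136197) was among the strongest class II regions in both cohorts. It had 94.7, 92, 92.6 and 94.5 in the first cohort. The ApoE KO libraries had 83.1 and 79.1 in WT untreated, 60.7 and 7.89 in KO untreated, 64.2 and 62.8 in WT oxLDL, and 59 and 25 in KO oxLDL. Each KO library was below each WT library in that cohort, and in the first cohort KO was lower untreated and higher with oxLDL. The share of all regions with such a split within the ApoE KO cohort was not counted. The fitted difference over all 12 libraries of both cohorts was -22.91 points (SE 9.99, limma, adjusted p = 0.705).

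H2-Oa had 4, 3, 5 and 4 peaks in the first cohort and 1 in every ApoE KO library. That 1 peak (chr17:34101309-34102217) lies 6075 bp downstream of the gene. It ranked lower with oxLDL in the ApoE KO cohort, but the fit over all 12 libraries did not pass adjustment. Percentiles of the peak were 87.9, 86.4, 87.3 and 80 in the first cohort. The ApoE KO libraries had 61.5 and 57.3 in WT untreated and 41.3 and 21 in KO untreated, against 5.9 and 9.32 in WT oxLDL and 11.9 and 2.15 in KO oxLDL. All 4 oxLDL values were below all 4 untreated values. How common such a split by treatment is over all regions of that cohort was not counted. The fitted treatment difference over all 12 libraries of both cohorts was -26.47 points (SE 7.57, limma, adjusted p = 0.509).

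H2-Ob had 4, 3, 4 and 3 peaks in the first cohort and 0 in 6 of the 8 ApoE KO libraries, with 1 in WT untreated replicate 2 and KO oxLDL replicate 2. Its regions included one 2705 bp downstream (chr17:34248613-34249128) with 80.3, 81.8, 67.2 and 75.7 in the first cohort and no ApoE KO call in full lists.

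Ciita and Cd74, like the class II genes, had more peaks in the longer first-cohort lists. Ciita had 10, 12, 12 and 11 peaks in the first cohort, and 1 in KO untreated replicate 2 and WT oxLDL replicate 2 of the ApoE KO cohort and 0 in the other 6. A region 3378 bp outside the gene (chr16:10475561-10476636) had 77.1, 74.2, 59.1 and 69.7 in the first cohort and was called in 0 of 8 full ApoE KO lists. Another inside the gene (chr16:10495788-10496539) had 67.6, 61.7, 64 and 65.7 and was called in 6 of 8. Cd74 had 4, 4, 5 and 6 peaks in the first cohort, and 0 and 1 in WT untreated, 1 and 2 in KO untreated, 0 and 2 in WT oxLDL, and 1 and 1 in KO oxLDL. A region inside the gene (chr18:60805438-60806464) had 60.5, 44, 69.6 and 62.9 in the first cohort. Among ApoE KO libraries it had 40.4 and 15.7 in KO untreated, 28.7 in WT oxLDL replicate 2, 3.49 in KO oxLDL replicate 2 and 0 in the others. A region 8385 bp outside Cd74 had 69.1 to 72.6 in the first cohort, 6.06 in 1 ApoE KO library and 0 in 7. Another inside it had 53.1 to 64.5, then 7.27 and 22.5 in 2 libraries and 0 in 6. With all lists cut to 24397, Ciita and Cd74 together had 1, 1, 1 and 3 peaks in the first cohort, and the ApoE KO cohort had 0 to 3, so at that length the cohorts overlapped.

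**Figure D3:**
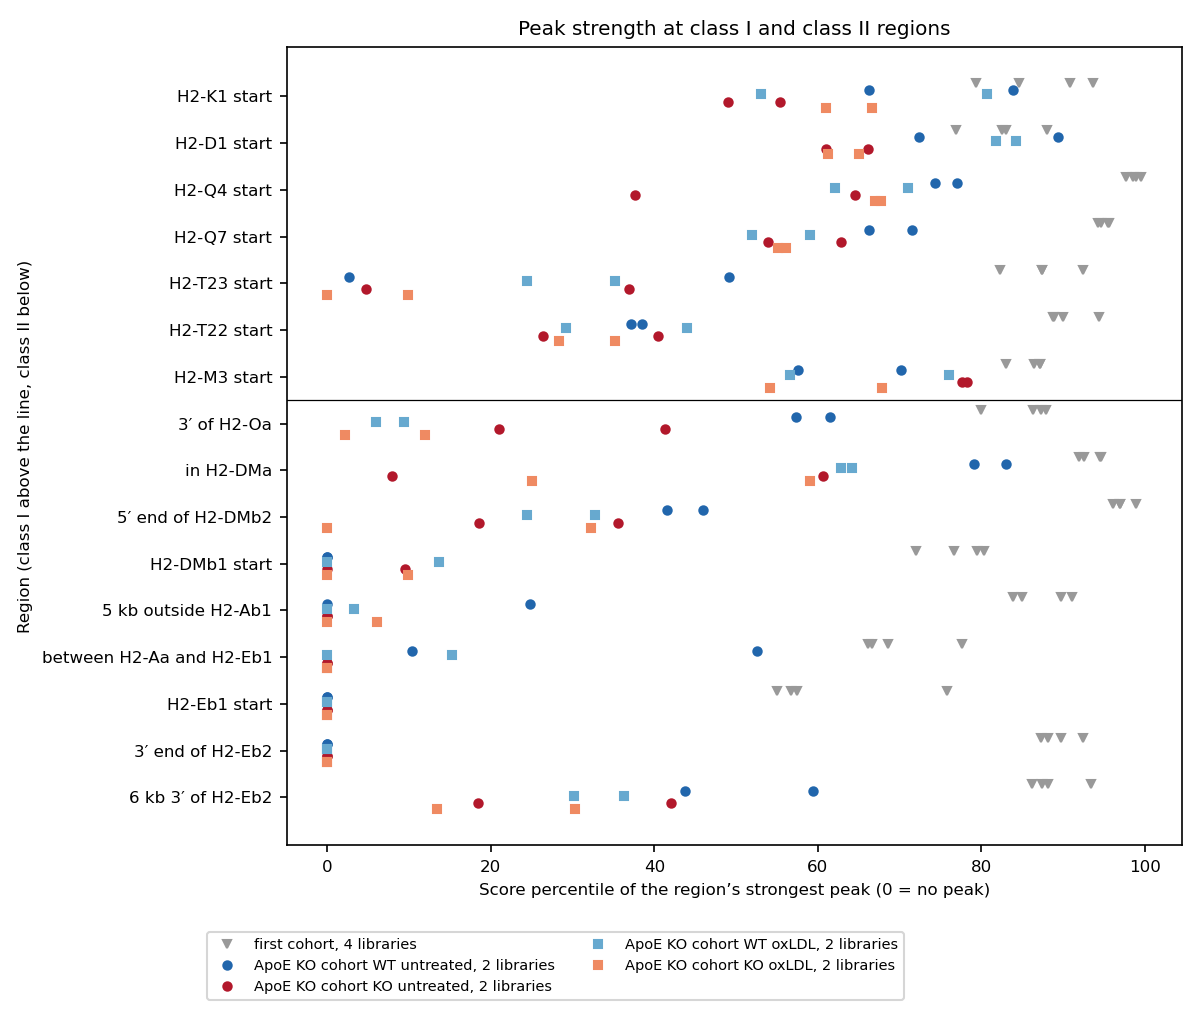
Score percentile at 7 class I starts (above the line) and 9 class II regions (below), 1 point per library, with 0 for no peak; grey triangles are the first cohort, blue the ApoE KO cohort WT and red or orange its KO. Percentiles are ranks in lists of 80394 and 24397 peaks, so the cohorts' points are not on one scale; all 8 ApoE KO libraries are at 0 at the H2-Eb1 start and the 3′ end of H2-Eb2.

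Between cohorts the comparison is of whole protocols, because cryopreservation, library kit and peak caller change with the cohort and cannot be told apart. Whether ApoE status changes too is not known, since the first cohort's labels do not give it. Among regions called in 4 of 4 first-cohort full lists, 32.6% of all regions were called in 0 of 8 ApoE KO lists and 25% in 8 of 8. Of the 38 such class II regions, 18 were called in none (47.4%) and 4 in all 8 (10.5%). Of the 35 such class I regions, 8 were called in none (22.9%) and 11 in all 8 (31.4%). Among regions with a mean first-cohort percentile from 75 to 100 in full lists, 2 of 10 class II, 0 of 14 class I and 2.63% of all regions were called in none.

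With all lists cut to 24397, 13 class II and 18 class I regions were called in 3 or more libraries and fitted. By limma, 26.6% of the 30610 regions fitted were lower in the ApoE KO cohort and 24.5% higher at an adjusted p under 0.05. A region called in 1 cohort alone could only differ one way, so such regions are given apart. Of the 9 class II regions called in both cohorts, 6 were lower and 0 higher. Of the 16 class I regions called in both, 5 were lower and 1 higher. The shares over all 30610 regions include those called in 1 cohort alone, so they are not a like background for these counts. The shares over all regions called in both cohorts were not counted.

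The 6 class II regions lay over the 5′ end of H2-DMb2 (chr17:34142430-34143863, -62.09 points, SE 8.11), 5072 bp outside H2-Ab1 (chr17:34257353-34258155, -54.38, SE 7.27), downstream of H2-Eb2 (-28.95) and H2-Oa (-25.62), at the start of H2-DMb1 (chr17:34152898-34153857, -20.5) and 759 bp upstream of H2-Eb1 (chr17:34304445-34305108, -12.42). The mean percentiles of the first 2 were 91 and 58.7 in the first cohort and 28.9 and 4.28 in the other. In class I the start of H2-D1 was higher (29.89, SE 5.77), while those of H2-T-ps (-52.39), H2-T23 (-38.17), H2-T22 (-33.99), H2-Q4 (-30.52) and H2-Q7 (-24.05) were lower. Near H2-Ke6, a region over the starts of Slc39a7 and Rxrb was higher (37.91). Called in the first cohort alone were the 3′ end of H2-Eb2, with a mean percentile of 65.2 there, and the region downstream of H2-Ob, with 23.7. Both Brd2 start regions near H2-DMa were called in the ApoE KO cohort alone, with 50.8 and 22.9.

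Markers of other cell types were counted in the same lists. Peaks within 1 kb of either gene end were present for 4 to 5 of 9 B cell markers and 5 to 6 of 9 dendritic cell markers in first-cohort libraries, and for 0 to 1 and 1 to 2 in ApoE KO libraries. Over all genes the share was 60.7 to 61.9% and 43.9 to 46.1%, so the first-cohort B cell counts were below it. With lists of 24397 peaks the first-cohort counts were 0 to 1 and 2 to 4, against 39.6 to 46.1% of all genes. Cd79b, Cr2, Fcer2a, Pax5, Ccr7, Cd209a and Zbtb46 had none in any library. T and NK cell markers numbered 3 of 8 in the first cohort, and the ApoE KO cohort had 2 to 3. Their part in the class II difference was not tested.

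For genotype, peaks per gene were fitted with limma on log2(peaks + 0.5), a scale that understates changes of genes with few peaks. Of all 14144 genes averaging 1 peak or more, 0.0141% were called at an adjusted p under 0.05. Of the 24 MHC genes that passed this filter, 0 were called, and 3 had an unadjusted p under 0.05, all lower in KO. These were H2-T-ps (-0.43, SE 0.14), H2-DMa (-0.27, SE 0.11) and H2-Eb1 (-0.89, SE 0.38), each with an adjusted p = 0.739 in limma. Over all genes 456 were lower and 281 higher at an unadjusted p under 0.05. In the other direction the smallest p belonged to Cd74 (0.57, SE 0.46), H2-M2 (0.08) and H2-M3 (0.12).

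For genotype by region, 0% of the 71206 regions called in 3 or more libraries passed, and 2142 were lower and 2154 higher at an unadjusted p under 0.05. Of the 90 MHC regions fitted, 59 had estimates below 0 and 31 above, with a median of -2.67 points; over all regions 51.1% were above 0 and the median was 0.12. The medians were -3.23 for 32 class I and -2.65 for 38 class II regions. The difference between the classes was not tested. Every WT library was above every KO library of its cohort and treatment in 1.21% of all regions and in 2 of the 90. These were the H2-D1 start and a region over one end of H2-T24 (chr17:36019995-36021296, -10.43 points, SE 5.4, adjusted p = 0.705). The smallest p after that of H2-D1 were at the H2-T-ps start (chr17:36110672-36111957, -20.4, SE 7.81) and 3678 bp upstream of H2-D1 (chr17:35259067-35259416, -12.69, SE 5.17). Upward they were 660 bp downstream of H2-Eb1 (6.25), inside H2-DMa (chr17:34127558-34127848, 5.4) and at the H2-M2 start (6.51), all regions with no ApoE KO peak in the cut lists.

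Within the ApoE KO cohort, which alone has replicates, class II windows held 8.5 ± 1.29 peaks in WT and 6.5 ± 1 in KO (SD, n = 4 each). The classical class II genes had 3, 4, 2 and 2 peaks in WT and 1, 1, 1 and 2 in KO, which touch at 2. Class I windows held 20 ± 2.94 and 14.5 ± 2.52. The lowest WT value, 16, was under the highest KO value, 17. Windows of all protein-coding genes held 19537 to 19701 peaks in WT and 19332 to 19427 in KO. In full lists, which differ in length, class II windows held a median of 9 peaks in WT and 9 in KO, and class I windows 25.5 and 26. In the first cohort class II windows had 43 and 43 peaks in WT and 34 and 43 in KO.

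For treatment, 0.0212% of all genes were called. At an unadjusted p under 0.05 in limma there were 0 of the 24 MHC genes, against 643 of all 14144 genes (274 lower and 369 higher). The smallest p of an MHC gene was at H2-D1 (-0.52, SE 0.24, adjusted p = 0.732 in limma). H2-D1 had 6, 5, 7 and 6 peaks in the first cohort, and 4, 3, 2 and 2 untreated (WT, then KO) in the ApoE KO cohort, where oxLDL libraries had 1, 1, 2 and 1. Next were H2-T-ps (-0.18) and H2-Eb1 (-0.42) downward and H2-K1 (0.22), H2-Oa (0.11) and H2-Eb2 (0.12) upward.

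For treatment by region, 0% of all regions passed, with 1481 lower and 2017 higher at an unadjusted p under 0.05. Of the 90 MHC regions, 42 were above 0 and 48 below, with a median of -0.47 against -0.29 over all. Untreated was above oxLDL in every cohort and genotype at 0.419% of all regions and at 1 of the 90, the one downstream of H2-Oa described above. The largest upward difference by p was 2811 bp outside H2-T24 (chr17:36023611-36024532, 10.26 points, SE 3.35, adjusted p = 0.509). It had 65.1, 65.8, 75.8 and 74.6 in the first cohort, 16.6 and 25.4 in WT oxLDL and 0 in the other 6 ApoE KO libraries. A pair of regions at Cd74 (14.62 and 12.05) were next; one had 0, 4.36, 51.2 and 40.7 in the first cohort. Downward were regions in H2-M5 (-7.38) and at the H2-Eb2 start (-9.15), neither with an ApoE KO peak.

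The interaction of genotype and treatment was called in 0% of all regions, with 619 lower and 744 higher at an unadjusted p under 0.05, and in 0 of the 90 by limma, with the smallest p at the region outside H2-T24 (-14.66 points, SE 6.71). Next downward were regions upstream of H2-T3 (-11.29) and outside Ciita (-14.32). Upward were regions in Ciita (19.16), upstream of H2-D1 (21.78) and at the H2-Q4 start (17.64), none past adjustment. Class II regions had 30 of 38 estimates above 0 (median 2.41 points) and class I regions 13 of 32 (median -1.3), against 49.5% of all regions (median -0.06). This difference between the classes was not tested. Neighbouring regions come from the same libraries and are not independent, and the first cohort had 1 library for each combination.

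**Figure D4:**
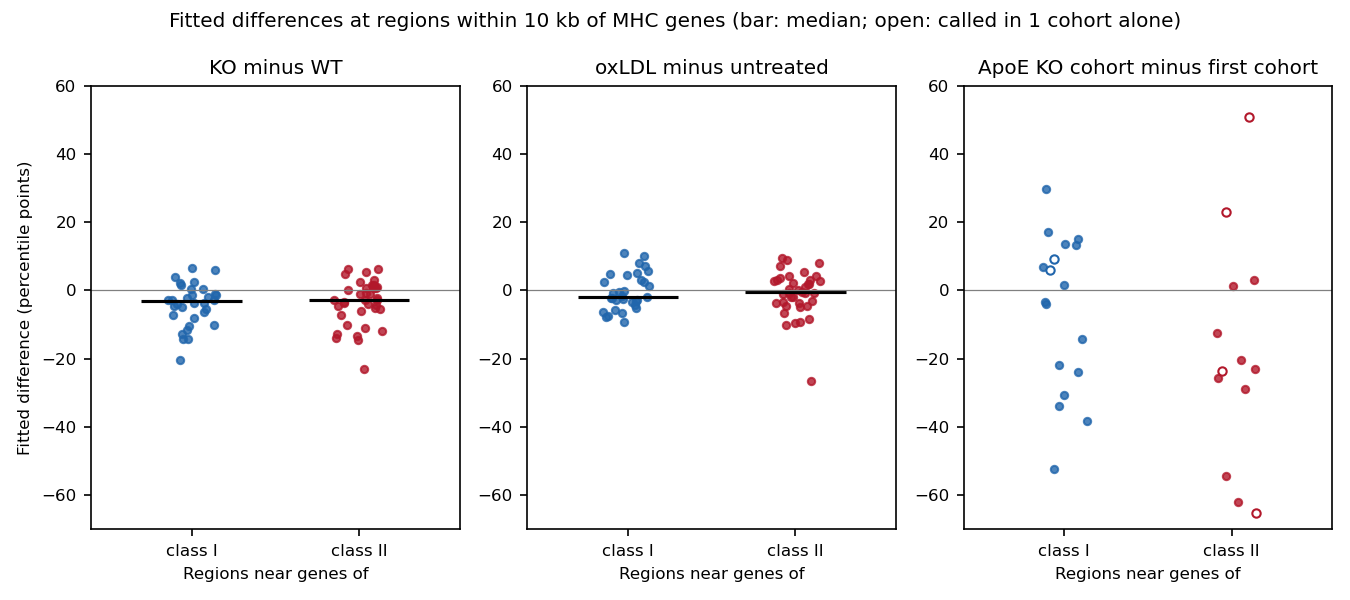
Fitted differences in score percentile at regions near class I (blue) and class II (red) genes, 1 point per region, with a bar at the median for KO minus WT and oxLDL minus untreated, and with no bar for ApoE KO minus first cohort (lists of 24397), where open points are regions called in 1 cohort alone. Genotype and treatment medians lie between -3.23 and -0.53 in both classes, and the lowest filled cohort point is the 5′ end of H2-DMb2 at -62.09.

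The 32 other antigen presentation genes were read the same way. Of these 31 were fitted and 0 called for genotype or treatment; for genotype 19 were below 0 and 9 above (median -0.08), where 35.1% of all genes were above 0. At an unadjusted p under 0.05, 4 were lower in KO and 1 higher by limma, against 456 and 281 of all 14144 genes. The smallest p belonged to Tap1 and Tap2, the peptide transporter of the class I pathway. Tap1 had 4 peaks in each first-cohort library, 2 in each of the 4 ApoE KO WT libraries and 1 in each of the 4 KO (-0.49, SE 0.13, adjusted p = 0.736). Tap2 had 3 in each first-cohort library, 1 in each ApoE KO WT library and 0 in each KO (-1.06, SE 0.27, adjusted p = 0.736). In the ApoE KO cohort alone, where identical counts within each genotype leave almost no residual spread, limma called both (-0.74, adjusted p = 1.02e-09, and -1.58, adjusted p = 2.09e-10).

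A single region makes both differences, over the start of Psmb8, an immunoproteasome subunit gene between the pair (chr17:34197299-34198892). It had 89.4, 84, 85.8 and 84.7 in the first cohort, 44.9 and 36.9 in WT untreated, 32.6 and 11.5 in WT oxLDL and 0 in all 4 KO libraries of the ApoE KO cohort. Without the list cut it was called in 4 of 4 WT and 4 of 4 KO libraries there, so the KO peaks ranked below the cut. B2m, the light chain of class I, had 4 to 7 peaks in the first cohort and 1 in each ApoE KO library, and Nlrc5, the class I co-activator, 14 to 15 and 1 to 3.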

How the data were processed

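The authors deposited 1 peak list per library (mm10), with a whole-number caller score per peak in both cohorts and, in the ApoE KO lists, a fold enrichment (ratio) and −log10 values of p and q, as the deposited narrowPeak layout gives them (the lists have no header). Scores alone were ranked; ties at the cut were split by q where given, then at random with a fixed seed. Tools were Bowtie2 2.3.4.1, SAMtools 1.2, bedtools 2.28.0, Picard and MACS3 (first cohort) or MACS2 (ApoE KO cohort), per the submitters' processing notes; their settings are not stated there. Gene positions came from RefSeq GRCm38.p6. Peaks of all libraries were merged into 144562 autosomal regions, 176 of them within 10 kb of an MHC gene. Genes and regions were fitted over the whole table with limma 3.58.1 in R 4.3.3, with genotype-by-treatment groups and cohort as a term and Benjamini-Hochberg adjustment; scripts were tested on simulated data. The members and lists were chosen with earlier results of these data known. Named were all class II genes, Ciita, Cd74, H2-K1, H2-D1, H2-T23, H2-M3 and H2-Q7, everything that passed a test, the 3 smallest p per direction, and the 5 strongest regions per class by mean percentile over the 12 lists, which mixes both list lengths; the Psmb8 region and other genes were named after their values were seen. H2-L and H2-Ea were not analysed here.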

Additional observations from a re-analysis of the deposited data

How the results depend on the processing

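Genes called for genotype numbered 2, against 0 in full lists, 1 at 5 kb, 0 at 50 kb, 5 with a pseudocount of 1, 427 in the ApoE KO cohort alone, 402 without the L001 libraries and 0 to 113 leaving out 1 library. For treatment they numbered 3, against 10, 0 at 50 kb, 5, 379, 408 and 0 to 93. Of the 427 and 379 calls, 397 and 368 had no residual spread (tied small counts), and leaving out any first-cohort library gave 19 to 113. No MHC gene was called in these fits except H2-M2 without the L001 libraries (0.24 for both). Among the other antigen presentation genes, Tap1 (-0.74) and Tap2 (-1.58) were called for genotype in the ApoE KO cohort alone and Nfyb (0.24 for both) without the L001 libraries, all with nearly no residual spread. Regions called numbered 0 for genotype, treatment and interaction, against 15, 15 and 14 with peaks covering at least 50% of a region, 3 each as called or not called (60.1% of regions then have no spread, so that fit is unreliable), 4 each in the ApoE KO cohort alone and 0 to 1 leaving out 1 library (1 without the first-cohort WT oxLDL library); no MHC region was among them. Cohort calls numbered 15660. In full lists, whose lengths differ between cohorts, they numbered 77704 of 85993 regions, 76470 lower and 1234 higher. There 42 class II and 36 class I regions were lower and 0 higher, the direction of most regions in that fit. Leaving out 1 library, 6 to 8 class II and 5 to 6 class I regions were lower.

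The class II share in the first cohort, 50.9%, became 41.8% in the top 10000 peaks, 55.5% at 5 kb, 34.1% at 50 kb and 61.5% in gene bodies with 1 kb, and 40.7% with one length for all 12 lists, an alternative chosen after seeing the data; in the ApoE KO cohort, 30.7% became 23.1% in the top 10000 and 17.2% at 50 kb. Class II minus class I median percentile was -8.81 in the first cohort and -1.82 in full lists, -16.1 at 5 kb, -24.8 in gene bodies and -0.957 with one length for all 12; in the ApoE KO cohort -4.97 turned to 2.22 in full lists. Signs turned for H2-M2 by genotype at 50 kb (-0.16), H2-T-ps by genotype in full lists (0.0604), H2-Oa (-0.022) and H2-Eb2 (-0.0884) by treatment in full lists, H2-Eb2 at 50 kb (-0.18), H2-Eb1 by treatment without L001 (0.15) and the H2-T-ps start with 50% cover (3.5). Of 575 alternatives to 30 named estimates, these 7 turned; the cause was not tested.

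The labels share replicate numbers only: deviations of same-numbered ApoE KO libraries correlated at -0.0853 to 0.0279. With the replicate block 0 genes were called for genotype and 0 for treatment, and 0 regions in each region fit. Peak lists without depth limit what an absent peak can show.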
